A study of Mus musculus with 6 samples.

Results

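The cytosolic ribosomal protein genes encode the proteins of the small (Rps) and large (Rpl) subunit of the ribosome that translates nuclear mRNA. They were taken from the count table by name, as all rows whose gene name is Rpl or Rps followed by a number and an optional letter or digit, together with Rplp0, Rplp1, Rplp2 and Rpsa, without kinases of the Rps6k type and without names that end in -ps. This gave 88 of 51826 rows, 52 with large subunit names and 36 with small subunit names. GENCODE release M21 lists 83 of them as protein coding and 5 as pseudogenes, namely Rps3a2, Rps3a3, Rps4l, Rpl6l and Rps12l1, although their names do not show it. After a filter on low counts 85 of the 88 could be tested.

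A ribosome carries 1 copy of nearly every ribosomal protein, and the acidic stalk proteins Rplp1 and Rplp2, which sit on Rplp0, are the known exception. The mRNAs of these genes are abundant in every cell type, and most begin with a run of pyrimidines, the 5′ terminal oligopyrimidine (TOP) tract, through which mTORC1 and Larp1 control their translation. The same mRNAs have been copied back into the genome many times, so that mammalian genomes hold large numbers of processed pseudogenes that lack introns and differ from the parent mRNA at few positions. A short sequencing read may therefore match a ribosomal protein mRNA and one or several of its copies about equally well.

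The libraries came from the cortex of male BALB/c mice, 6 to 8 weeks old, on day 3 after whole-brain irradiation with 10 Gy X-ray, with 3 Lgmn+/+-IR libraries (W1 to W3) and 3 Lgmn-/--IR libraries (K1 to K3). Lgmn encodes asparagine endopeptidase, and the Lgmn-/- mice are Lgmn flox/flox: Cre+ animals that trace back to a single ES cell clone injected into BALB/c blastocysts. The driver of the Cre, and the strain of the ES cells and of the Flp and Cre mice, are not given in the sources used here, and non-irradiated mice were not analysed here. Genotype is thus the only difference that the labels give between the groups, and any other difference between the animals cannot be told apart from it.

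Total counts ranged from 41874462 to 46829441. Lgmn itself had 5558, 5528 and 5775 counts in W1, W2 and W3 against 3703, 3269 and 4109 in K1, K2 and K3, a log2 fold change of -0.64 (SE 0.12, edgeR adjusted p = 0.0315), counted over the whole gene and not over the deleted part alone. By edgeR, 5 of 6 oligodendrocyte markers were lower and 5 of 5 erythroid markers and 1 of 6 astrocyte markers (Aqp4) were higher in Lgmn-/--IR, and none of 8 neuron, 8 microglia, 6 endothelial, 6 choroid plexus and 1 leukocyte marker tested was called (0, 2, 0, 0 and 0 at an unadjusted p under 0.05, and 0, 1, 0, 0 and 0 by DESeq2). For the oligodendrocyte, erythroid and astrocyte markers, 5, 5 and 3 had an unadjusted edgeR p under 0.05, and DESeq2 called 5, 5 and 2. The neuron markers summed to 7546 to 9525 CPM, the counts scaled to a common depth, so neurons were present in each library, while these markers do not tell cortex from other brain regions. The hemoglobin genes took 0.000747% to 0.00156% of counts in Lgmn+/+-IR but 0.223%, 0.177% and 0.0217% in K1, K2 and K3. The part of these differences in the values of the ribosomal protein genes was not tested. In bulk cortex, fewer cells of a type and less RNA per cell cannot be told apart.

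Ribosomal protein genes took 1.42%, 1.53% and 1.36% of all counts in W1, W2 and W3 and 1.43%, 1.73% and 1.16% in K1, K2 and K3. The means of the genotypes were 1.44% ± 0.0871 (SD, n = 3) in Lgmn+/+-IR and 1.44% ± 0.285 (SD, n = 3) in Lgmn-/--IR. The difference was thus far smaller than the spread between libraries, and the spread was wider in Lgmn-/--IR, whose libraries K2 and K3 were the highest and the lowest of the 6.

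The levels of the single genes, compared as FPKM, which is counts per length of transcript and per depth, covered several orders of magnitude. By the mean over all 6 libraries Rplp1, one of the stalk proteins, was the highest, with 936, 1062 and 970 FPKM in W1, W2 and W3 against 815, 1200.4 and 584 FPKM in K1, K2 and K3. Rps15, a protein of the small subunit head, followed with 868, 919 and 809 FPKM in W1, W2 and W3 against 859, 1004 and 761 FPKM in K1, K2 and K3. Rplp1 and Rps15 overlapped in Lgmn-/--IR but not in Lgmn+/+-IR, where Rplp1 was higher in all libraries. Rps29, a small zinc finger protein of the same subunit, came next with means of 503 ± 70.9 FPKM (SD, n = 3) and 396 ± 195 FPKM (SD, n = 3) in Lgmn+/+-IR and Lgmn-/--IR. This order did not hold within Lgmn-/--IR, where the mean of Rps15 was above that of Rplp1 and Rpl23a, with 436 ± 59.4 FPKM (SD, n = 3), was above Rps29. At the other end of the tested genes stood Rps3a3, Rpl6l and Rpl3l. The muscle-type paralog Rpl3l had 0.106, 0.254 and 0.231 FPKM in W1, W2 and W3 against 0.296, 0.0427 and 0 FPKM in K1, K2 and K3. Its widely expressed paralog Rpl3 had a mean of 196 ± 14.9 FPKM (SD, n = 3) in Lgmn+/+-IR. All of these levels are those of the gene's own row, without the rows of its near-identical copies, which are described below. In Lgmn+/+-IR the own row held on average 50.5% of the counts on gene and copies for Rpl3 and 10.6% for Rps2. The order of the genes may therefore differ once copies are included, which was not tested.

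**Figure D1:**
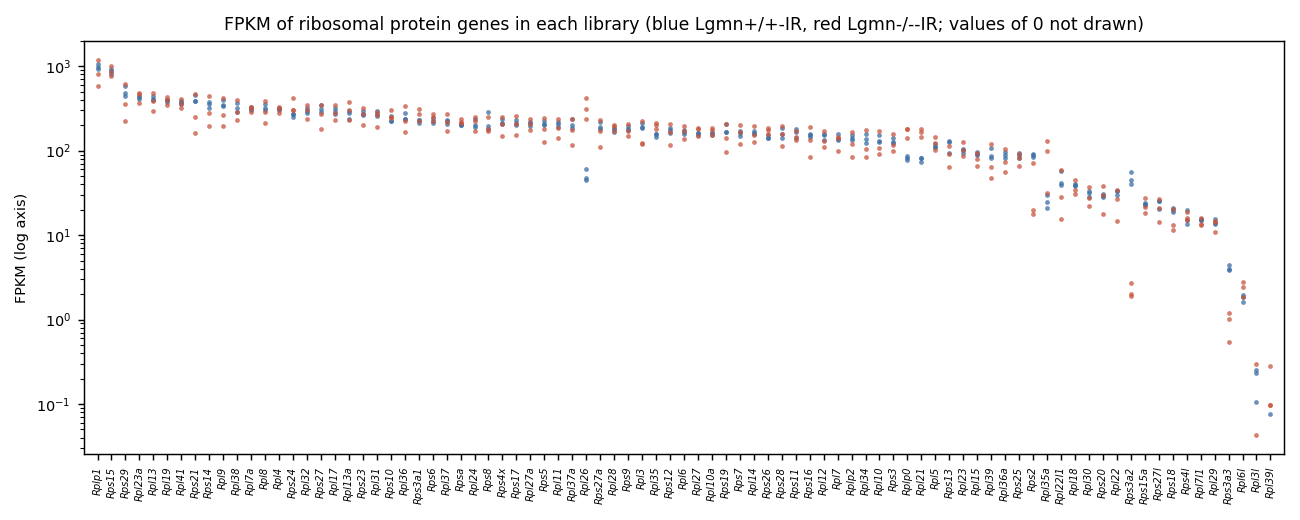
FPKM on a log axis of the ribosomal protein genes with a value above 0 (1 gene is not drawn), ordered by its mean over all libraries, with 1 point per library (blue Lgmn+/+-IR, red Lgmn-/--IR). In most genes the colours are mixed, and the colours separate widely at Rpl26, Rplp0, Rpl21, Rps3a2 and Rps3a3, while at Rps2 and Rpl35a K2 lies near the Lgmn+/+-IR libraries.

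The 3 genes that did not pass the filter were the testis-type paralogs Rpl10l and Rpl39l and the pseudogene Rps12l1. Rpl10l and Rps12l1 had 0 counts in every library, and 3 counts correspond to 0.0641 to 0.0716 CPM of the raw library totals, without TMM scaling. Rpl39l had 2, 0 and 0 counts in W1, W2 and W3 against 4, 4 and 12 in K1, K2 and K3, too few to compare. Their widely expressed partners Rpl10 and Rpl39 were well measured, with at least 3801 and 1525 counts in each library.

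Of the 85 genes tested with edgeR, 3 were higher and 2 were lower in Lgmn-/--IR at an adjusted p under 0.05. Over all 18345 genes tested, 1.65% were higher and 1.68% were lower by the same rule. With the further limit of an absolute log2 fold change over 1, which defines a DEG here, 4 ribosomal protein genes were DEGs, against 2.06% of all genes. The genes that rose were Rpl26, Rpl21 and Rplp0, and the genes that fell were Rps3a2 and Rps3a3, both of which are annotated as pseudogenes. The libraries of the genotypes did not overlap in 18 members (15 with higher and 3 with lower values in K1 to K3), while 25.7% of all genes tested did not overlap (2275 with higher and 2435 with lower values). The median log2 fold change was -0.027 over the ribosomal protein genes and -0.012 over all genes, and 65 of the 85 had an absolute log2 fold change below 0.25.

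**Figure D2:**
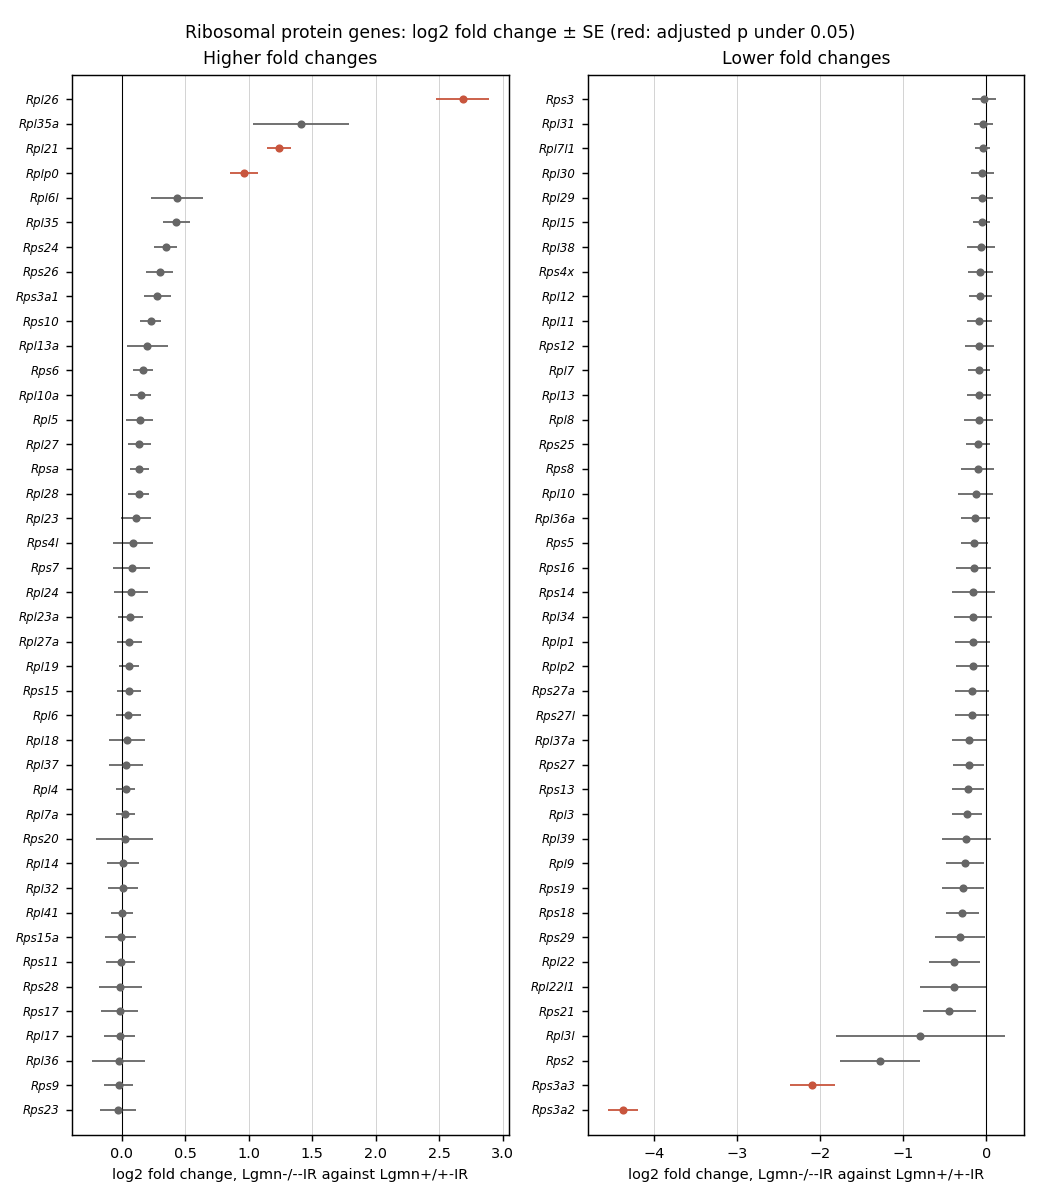
log2 fold change of the tested ribosomal protein genes (1 is not drawn) in Lgmn-/--IR against Lgmn+/+-IR, with bars of 1 SE, with higher values in the left panel and lower values in the right panel (the axes of the panels differ). The genes in red, with an adjusted p under 0.05, are Rpl26, Rpl21, Rplp0, Rps3a3 and Rps3a2, and most of the others lie close to 0.

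Each gene that rose has processed pseudogenes that differ from its coding sequence at few positions. A search of all GENCODE transcripts for copies (95% identity or more, across 80% or more of the shorter sequence) found, in the count table, 555 pseudogene rows that match 76 of 84 families, where a family is a gene with its copies of a pseudogene class (Rps3a2 and Rps3a3 fall into the family of Rps3a1, Rpl6l into that of Rpl6 and Rps12l1 into that of Rps12). Copies listed as protein coding, such as Rpl10-ps3 for Rpl10 and Gm45713 for Rpl13a, were left out of the families. The following stretches of 120 coding bases are shown because they carry the positions at which a read can tell the gene from a copy with many counts. They are written 5′ to 3′ on the strand of the gene, from GENCODE M21 (GRCm38), with the bases that differ in capitals. Positions are counted from 1 at the first base of the start codon of the gene.

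Rpl26, on chr11:68901583-68906989 (+ strand), and the processed pseudogene Gm15772, on chr5:3236431-3236868 (+ strand), have the same length of 438 bases and differ over all of it only at C177T and T288C. Both lie in coding bases 172 to 291.
Rpl26: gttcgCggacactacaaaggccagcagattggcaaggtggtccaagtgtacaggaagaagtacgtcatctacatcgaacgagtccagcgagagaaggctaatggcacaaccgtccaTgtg
Gm15772: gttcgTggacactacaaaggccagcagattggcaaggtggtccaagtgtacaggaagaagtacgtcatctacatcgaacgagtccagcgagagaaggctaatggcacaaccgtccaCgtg

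Rplp0, on chr5:115559467-115563727 (+ strand), and Gm8730, on chr8:102864845-102865798 (- strand), differ at 12 of 954 bases. In coding bases 383 to 502 the differences are A390G, A393G, A447T and G502A.
Rplp0: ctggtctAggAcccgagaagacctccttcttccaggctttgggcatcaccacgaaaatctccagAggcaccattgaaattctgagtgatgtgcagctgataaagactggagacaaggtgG
Gm8730: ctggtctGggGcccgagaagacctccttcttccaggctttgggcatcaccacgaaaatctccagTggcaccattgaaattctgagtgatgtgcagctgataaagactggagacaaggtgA

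Rpl21, on chr5:146832890-146837032 (+ strand), and Gm13370, on chr2:24985984-24986466 (+ strand), differ at 2 of 483 bases, T336C and T432C, both in coding bases 324 to 443. A further copy, Gm10163 on chr9:88390837-88391317, carries the same T336C and T432C.
Rpl21: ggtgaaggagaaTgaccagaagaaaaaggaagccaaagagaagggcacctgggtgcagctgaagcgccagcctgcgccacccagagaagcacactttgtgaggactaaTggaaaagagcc
Gm13370: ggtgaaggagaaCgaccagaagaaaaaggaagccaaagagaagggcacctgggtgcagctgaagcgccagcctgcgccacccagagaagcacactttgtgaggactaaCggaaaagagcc

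Rps3a1, on chr3:86137940-86142702 (- strand), and Rps3a2, on chr14:88123017-88123808 (- strand), differ at 4 of 792 aligned bases, and T534C and A645T fall in coding bases 529 to 648.
Rps3a1: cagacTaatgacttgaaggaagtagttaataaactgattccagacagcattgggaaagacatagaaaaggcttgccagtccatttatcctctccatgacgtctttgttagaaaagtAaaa
Rps3a2: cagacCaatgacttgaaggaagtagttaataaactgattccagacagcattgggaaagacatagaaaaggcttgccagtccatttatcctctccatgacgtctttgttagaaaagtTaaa

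Rpl26, a large subunit protein near the exit of the peptide tunnel, had 1116, 1531 and 1277 counts in W1, W2 and W3 against 8245, 11216 and 6625 in K1, K2 and K3. No library of either genotype came near the range of the other, and the log2 fold change was 2.68 (SE 0.21, edgeR adjusted p = 0.000895). The row of its copy Gm15772 moved the other way, from 10361, 10981 and 10295 counts in W1, W2 and W3 to 48, 85 and 40 in K1, K2 and K3, with a log2 fold change of -7.56 (SE 0.28, edgeR adjusted p = 2.18e-05). Of all counts on the family of 6 rows, the row of Rpl26 held 9.67%, 12.1% and 10.96% in W1, W2 and W3 but 98.6%, 98.5% and 98.5% in K1, K2 and K3. The sum of the family was 11542, 12613 and 11650 counts in W1, W2 and W3 against 8358, 11387 and 6725 in K1, K2 and K3. Thus the row of Rpl26 alone was higher in Lgmn-/--IR, and the sum with its copies had a log2 fold change of -0.48 (SE 0.17, edgeR adjusted p = 0.202), of the opposite sign and not called.

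Rplp0, which anchors the stalk and is widely used as a reference gene in RT-qPCR, had 5039, 5433 and 5186 counts in W1, W2 and W3 against 10275, 12260 and 8977 in K1, K2 and K3. Its log2 fold change was 0.96 (SE 0.11, edgeR adjusted p = 0.00619). Gm8730 fell from 4937, 5399 and 5018 counts to 771, 1176 and 697, and Gm9625, a copy on chromosome 13, fell from 1001, 1122 and 980 counts to 48, 35 and 35. The row of Rplp0 held 45.2% to 46.0% of the counts of its family in Lgmn+/+-IR and 91.0% to 92.6% in Lgmn-/--IR. With the copies added, the family had 11033, 12019 and 11264 counts in W1, W2 and W3 against 11095, 13474 and 9710 in K1, K2 and K3, and these ranges overlap. The log2 fold change of the sum was -0.044 (SE 0.12, edgeR adjusted p = 0.875).

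Rpl21, a large subunit protein with 55 copies in the table, had 5534, 5805 and 5504 counts in W1, W2 and W3 against 13746, 14974 and 12239 in K1, K2 and K3, a log2 fold change of 1.24 (SE 0.09, edgeR adjusted p = 0.000861). The copies Gm13370, Gm10163 and Gm10240 each had 1414 to 1445 counts in the Lgmn+/+-IR libraries and 13 to 20 in the Lgmn-/--IR libraries. In all, 8 copies of Rpl21 were lower in Lgmn-/--IR at an adjusted p under 0.05 and none was higher. Since Gm13370, Gm10163 and Gm10240 had nearly equal counts in each Lgmn+/+-IR library, their rows may share reads, which was not tested. The called copies are therefore not independent of each other, and shared reads would enter the sum more than once. The family summed to 13092, 13645 and 13070 counts in W1, W2 and W3 against 15523, 17379 and 13702 in K1, K2 and K3. Its log2 fold change was 0.19 (SE 0.10, edgeR adjusted p = 0.361), in the direction of the single row but not called.

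Rps3a1, the gene of the small subunit protein eS1, has copies whose own names match the rule. The pseudogene Rps3a2 had 1717, 2099 and 1657 counts in W1, W2 and W3 against 81, 112 and 80 in K1, K2 and K3, a log2 fold change of -4.37 (SE 0.18, edgeR adjusted p = 5.01e-05). Rps3a3, on chr13:108670603-108671397, had 167, 149 and 160 counts in W1, W2 and W3 against 41, 50 and 24 in K1, K2 and K3, a log2 fold change of -2.09 (SE 0.27, edgeR adjusted p = 0.00921). The gene itself had 10686, 10680 and 10656 counts in W1, W2 and W3 against 13320, 15308 and 11522 in K1, K2 and K3. All of the Lgmn-/--IR libraries were above all of the Lgmn+/+-IR libraries, but the log2 fold change of 0.28 (SE 0.10) did not pass the test (edgeR adjusted p = 0.211). Summed with its copies, the family had a log2 fold change of 0.05 (SE 0.11, edgeR adjusted p = 0.847), and its libraries overlapped.

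In 2 further genes with many copies, library K2 had values like those of Lgmn+/+-IR and K1 and K3 did not. Rpl35a, a large subunit protein, had 814, 975 and 921 counts in W1, W2 and W3 against 3491, 1145 and 2719 in K1, K2 and K3. Its row held 16.5% to 17.5% of the family in Lgmn+/+-IR, 61.5% in K1, 17.3% in K2 and 62.1% in K3. The copy Gm10243, 99.7% identical over 333 bases, had 957, 1033 and 1027 counts in W1, W2 and W3 against 482, 1254 and 365 in K1, K2 and K3, again with K2 apart from K1 and K3. The log2 fold change of the row was 1.41 (SE 0.38, edgeR adjusted p = 0.106) with all libraries and 1.77 (adjusted p = 0.0045) without K2, while that of the family sum was 0.02 (SE 0.14, edgeR adjusted p = 0.944).

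Rps2, a small subunit protein at the entry of the mRNA channel, had 4001, 4509 and 4667 counts in W1, W2 and W3 against 1035, 3674 and 965 in K1, K2 and K3. Its row held 10.1% to 11.02% of the family in Lgmn+/+-IR, 3.60% in K1, 9.97% in K2 and 3.68% in K3, so that most reads of this family lay on copies in every library. The copy Rps2-ps10 alone had 21709, 22604 and 22738 counts in W1, W2 and W3 against 14962, 20069 and 12387 in K1, K2 and K3. The row of Rps2 had a log2 fold change of -1.28 (SE 0.48, edgeR adjusted p = 0.221), and -2.15 (adjusted p = 0.000794) without K2. Here the sum also leaned downwards, with a log2 fold change of -0.48 (SE 0.12, edgeR adjusted p = 0.0926), which became -0.61 (adjusted p = 0.0293) without K2. Among the copies of Rplp1, Gm11942 on chr4:32964888-32965232 had 6, 11 and 9 counts in W1, W2 and W3 against 515, 255 and 586 in K1, K2 and K3, and it was the 1 copy that was higher in Lgmn-/--IR, with K2 the lowest of the Lgmn-/--IR libraries.

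**Figure D3:**
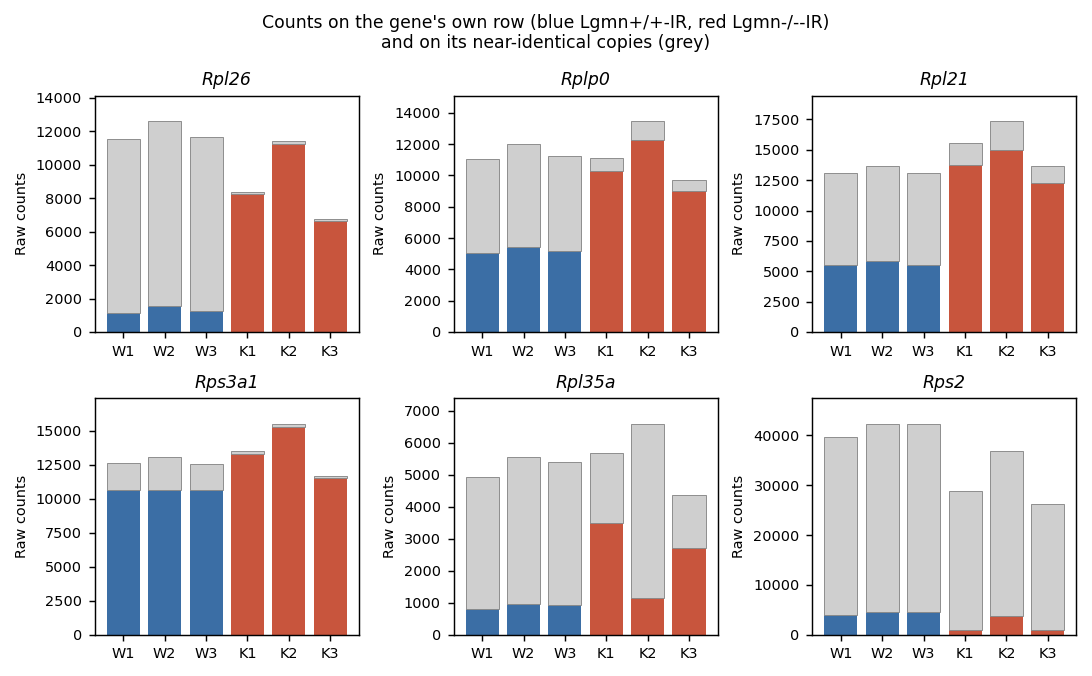
Raw counts on the row of the gene (blue in Lgmn+/+-IR, red in Lgmn-/--IR) and on the near-identical copies in its family (grey, stacked on top) in each library, for 6 families. For Rpl26, Rplp0, Rpl21 and Rps3a1 the grey part shrinks in K1, K2 and K3 and the full bars differ less between the genotypes than the coloured parts, while for Rpl35a and Rps2 the split in K2 is like that in W1 to W3.

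When every family was fitted as 1 sum in place of its members, 0 of the 82 families tested with edgeR had an adjusted p under 0.05, while 3.14% of the 18137 rows in that fit did. At an unadjusted p under 0.05 there were 7. The smallest adjusted p was 0.0843, for Rpl35. The median log2 fold change was -0.022, and 81 of the 82 families were within 0.5 of 0, the exception being Rpl3l, at -0.79 (SE 1.02), which rests on 0 to 21 counts per library. Of the 205 copies that passed the filter on low counts as single rows, 13 were lower and 1 was higher in Lgmn-/--IR at an adjusted p under 0.05, and these 13 belonged to Rpl21 (8), Rplp0 (4) and Rpl26 (1). In 63 of the 75 tested families with copies the share of the gene's own row differed by less than 1 percentage point between the genotypes, and it differed by more than 5 points in 5 families, those of Rpl26, Rplp0, Rpl21, Rpl35a and Rps3a1. Rps7 stayed below that limit, and there K3 and not K2 was the Lgmn-/--IR library closest to Lgmn+/+-IR. Its own row held 81.3% to 82.6% in W1 to W3, 89.7% in K1, 89.9% in K2 and 79.1% in K3. How reads that match several places were counted is not given in the sources used here, and its part in these values was not tested. A read counted on several rows would enter a family sum more than once.

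**Figure D4:**
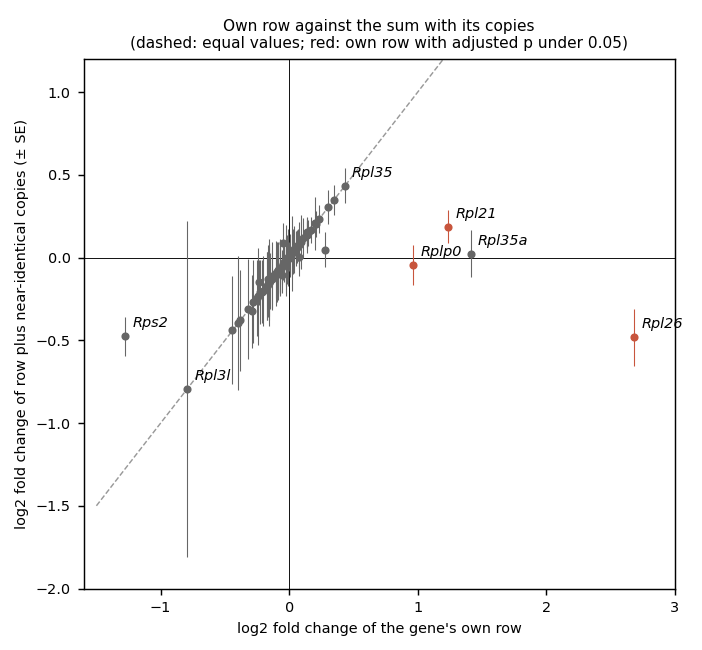
log2 fold change of the gene's own row (horizontal axis) against that of the row summed with its near-identical copies (vertical axis, bars of 1 SE), with the dashed line marking equal values. Most families lie on the line, Rpl26, Rpl21, Rplp0 and Rpl35a lie far to its right with sums near or below 0, and Rps2 lies to its left.

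Among the genes whose own row held nearly all counts of the family, Rpl35 and Rps24 had the clearest difference. Rpl35, a protein at the tunnel exit, had 6971, 6924 and 6938 counts in W1, W2 and W3 against 10108, 8605 and 10132 in K1, K2 and K3, so all Lgmn-/--IR libraries were higher. Its log2 fold change of 0.43 (SE 0.11) did not pass the test with all libraries (edgeR adjusted p = 0.086), and Arpc5l overlaps it on the opposite strand, whose reads cannot be told apart if strand was not used in counting. Rps24, a small subunit protein mutated in some families with Diamond-Blackfan anemia, had 10020, 9689 and 9556 counts in W1, W2 and W3 against 13456, 12292 and 12537 in K1, K2 and K3, with a log2 fold change of 0.35 (SE 0.09, edgeR adjusted p = 0.0972). These 2 genes and Rpl35a were called by DESeq2, which gave 6 higher and 2 lower members, and Rpl35 was also called by edgeR without K2. The share of all genes called by DESeq2 is not given here, and the shares given above are those of edgeR.

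The other members of the stalk did not follow the row of Rplp0. Rplp1 had 549.6 ± 31.5 CPM (SD, n = 3) in Lgmn+/+-IR and 491 ± 154 CPM (SD, n = 3) in Lgmn-/--IR, with a log2 fold change of -0.16 (SE 0.21). Rplp2 had 143 ± 10.0 and 127 ± 36.0 CPM (SD, n = 3 each), also with a log2 fold change of -0.16 (SE 0.20). Neither differed beyond the spread of its libraries.

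Rpl5 and Rpl11, which with 5S rRNA form the particle that can bind Mdm2 when ribosome assembly is disturbed, stayed within the spread as well. Rpl5 had 10279, 10726 and 10622 counts in W1, W2 and W3 against 11817, 13837 and 10304 in K1, K2 and K3, and Rpl11 had 7746, 8190 and 7846 and then 7505, 9669 and 6031. Their log2 fold changes were 0.14 (SE 0.10) and -0.08 (SE 0.15), with edgeR adjusted p = 0.521 and 0.807. For Rpl11 the libraries of Lgmn-/--IR lay on either side of the Lgmn+/+-IR libraries, and for Rpl5 K1 and K2 lay above them and K3 lay within their range.

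Rps6, the substrate of the S6 kinases downstream of mTORC1, had 10111, 10938 and 10750 counts in W1, W2 and W3 against 12274, 12831 and 11624 in K1, K2 and K3. The libraries did not overlap, but the log2 fold change of 0.17 (SE 0.08) was not called (edgeR adjusted p = 0.31). Rpsa, a small subunit protein also known as the laminin receptor precursor, had a log2 fold change of 0.14 (SE 0.08, edgeR adjusted p = 0.384), again without overlap. Rps19, the gene most often mutated in Diamond-Blackfan anemia, had a log2 fold change of -0.28 (SE 0.25, edgeR adjusted p = 0.598), with 4786, 7483 and 3431 counts in K1, K2 and K3 around 5429 to 6910 in Lgmn+/+-IR.

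None of the paralog pairs showed a called shift from one partner to the other. Rpl22, which binds RNA and is deleted in some leukemias, and its paralog Rpl22l1 had log2 fold changes of -0.38 (SE 0.30) and -0.40 (SE 0.40), and both were lowest in K3, with 1217 and 474 counts, against at least 2931 and 1052 in the Lgmn+/+-IR libraries. Rps27 and Rps27l, the latter a target of p53, had log2 fold changes of -0.21 (SE 0.19) and -0.18 (SE 0.20). Rpl7 and Rpl7l1 had values of -0.09 (SE 0.13) and -0.05 (SE 0.09), and Rps4x and the transcribed pseudogene Rps4l had values of -0.07 (SE 0.15) and 0.09 (SE 0.16). Rpl10, Rpl39 and Rpl3 had log2 fold changes of -0.13 (SE 0.21), -0.24 (SE 0.29) and -0.23 (SE 0.18), and Rpl38 had -0.07 (SE 0.17). Rpl41, the shortest of the ribosomal proteins, had 236 ± 8.92 CPM (SD, n = 3) in Lgmn+/+-IR and 236 ± 16.1 CPM (SD, n = 3) in Lgmn-/--IR.

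What set the libraries of Lgmn-/--IR apart from each other was a shift that most ribosomal protein genes shared. Relative to the mean of each gene over all libraries, the median over the 81 protein-coding members tested was -0.0035, 0.093 and -0.042 on the log2 scale in W1, W2 and W3 and -0.010, 0.24 and -0.25 in K1, K2 and K3. K2 was the highest library for 55 of the 81 genes and the lowest for 0, and K3 was the lowest for 58 and the highest for 3. Over all genes tested, K2 was the highest library for 14.2% and K3 the lowest for 22.3%. Between K2 and K3 the median difference was 0.49, with K2 above K3 in 76 of 81. Large and small subunit genes moved alike, with medians of 0.23 and 0.25 in K2 and -0.22 and -0.33 in K3. The median over all 18345 genes stayed between -0.011 and 0.0095 in every library.

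The spread within a genotype was also wider in Lgmn-/--IR. The median SD of log2 CPM over 3 libraries was 0.08 in Lgmn+/+-IR and 0.27 in Lgmn-/--IR for these genes, against 0.15 and 0.17 for all genes, and 73 of 81 (90.1%) had the larger SD in Lgmn-/--IR, against 56.3% of all genes. Rps21 and Rps14, both small subunit proteins, are examples, with 5037, 9513 and 3376 counts and 8491, 14176 and 6168 counts in K1, K2 and K3, against 7238 to 8533 and 9782 to 10832 counts in the Lgmn+/+-IR libraries. Mitochondrially encoded transcripts took 9.07%, 5.68% and 9.43% of counts in K1, K2 and K3 and 8.03% to 8.34% in Lgmn+/+-IR, and their part in the shift was not tested. Leaving out K2 moved the median log2 fold change of the members to -0.14, and leaving out K3 moved it to 0.07.

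**Figure D5:**
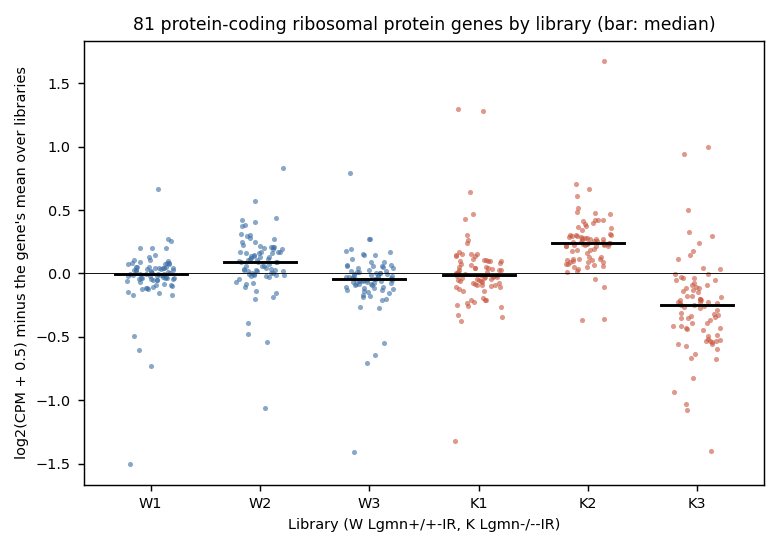
Deviation of log2(CPM + 0.5) from the mean of each gene over all libraries, for the 81 protein-coding ribosomal protein genes tested (1 point each) in each library, with a bar at the median. The points of W1, W3 and K1 centre near 0, and those of W2 lie somewhat above it (60 of 81 genes above their mean). Those of K2 lie mostly and further above 0, and those of K3 lie mostly below it.

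The sequence around the start sites was searched for motifs known from this family. RefSeq (GRCm38.p6) lists promoter windows for 63 of the members. A TOP tract, taken as a C followed by at least 4 pyrimidines at the listed start itself, was present in 13 of the 63 (20.6%), against 2.72% of 16235 protein-coding genes, and within 10 bases of the listed start in 61.9% against 35.2%. The letters CCGGAAG, the core bound by ETS factors such as GABP, were found on either strand of the window from 250 bases before to 50 after the start in 41.3% of members against 13.3% of protein-coding genes, AAGATGGC, the core of the YY1 motif, in 9.52% against 3.65%, and TATAAA in 11.1% against 14.3%. A gene was counted with a motif if any of its listed starts had it. The other listed starts of Rpl35a, apart from that shown here, had no tract within 10 bases. The 40 bases around the start of Rps6, on chr4:86857348-86857387 (- strand), and around a listed start of Rpl35a, on chr16:33056462-33056501 (+ strand), are shown as examples of a tract at the start, with the tract in capitals.
Rps6: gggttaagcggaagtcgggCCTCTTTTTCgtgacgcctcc
Rpl35a: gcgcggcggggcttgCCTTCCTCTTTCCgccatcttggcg

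Few genes of the same pathways outside the name rule passed the test, at which 1.65% of all genes were higher and 1.68% were lower, and none of these calls held under all 19 alternatives to the edgeR fit. Of 16 other genes with TOP mRNAs or translation factor roles, 1 rose, Eef1g, a subunit of the elongation factor eEF1, with 9096, 9494 and 9366 counts in W1, W2 and W3 against 13365, 14319 and 11751 in K1, K2 and K3 (log2 fold change 0.45, SE 0.09, edgeR adjusted p = 0.0424). It was called under 6 of the 19 alternatives, with adjusted p from 0.000822 to 0.311, and the call was lost without any one of W1, W2, W3, K1 and K2. Near-identical copies were searched for the ribosomal protein genes alone and not for Eef1g. None of 25 ribosome biogenesis factors, 14 genes of RNA polymerase I and rDNA transcription and 14 genes of mTORC1 and TOP mRNA control was called by edgeR, with 2, 1 and 2 at an unadjusted p under 0.05 and 0 in each by DESeq2. None of the 5 ribosomal proteins or ribosome-bound proteins outside the name rule was called either (0 at an unadjusted p under 0.05 and 0 by DESeq2).

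Of 10 genes on the 5S particle, Mdm2 and p53 side of ribosomal stress, 2 fell, Urb1 (log2 fold change -0.60, SE 0.12, edgeR adjusted p = 0.0401) and Heatr3 (-0.61, SE 0.11, edgeR adjusted p = 0.0365). Urb1 was called under 7 and Heatr3 under 11 of the 19 alternatives, and both calls were lost when any single library was left out (edgeR adjusted p of 0.051 to 0.156). Calls over all rows also fell in such fits. With family sums in place of the members, 570 rows were called with all libraries and 197 to 432 with 1 library left out. Heatr3 helps to import Rpl5 into the nucleus, and Urb1 acts in the assembly of the large subunit. Of 78 mitochondrial ribosomal protein genes, which serve the separate ribosome of mitochondria, Mrpl9 and Mrps14 fell, a share near that of all genes, with log2 fold changes of -0.84 (SE 0.13, edgeR adjusted p = 0.0195) and -0.86 (SE 0.18, edgeR adjusted p = 0.0496), and DESeq2 called 5 of the 78. No share of all genes called by DESeq2 is given here to set beside that count. Mrpl9 was called under 12 and Mrps14 under 5 of the 19 alternatives, and both calls were lost without any one of W1, W2, W3, K1 and K3. The median of the list was 0.03. Relative to the mean over all libraries, the median of the mitochondrial ribosomal protein genes was 0.03 in K2 and -0.07 in K3, against 0.24 and -0.25 for the cytosolic ones.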

How the data were processed

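Poly(A) RNA of 6 cortical samples was sequenced, and the groups follow the sample labels. Reads were trimmed by the authors with Trimmomatic 0.36 and aligned with HISAT2, and a table of raw counts per gene and library was deposited. The authors also deposited FPKM, computed with StringTie, for the same genes. The submitters' notes name the build GRCm38. The read counter, its strand setting and its handling of reads that match several places are not given in the sources used here.

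Genotype was tested as the single factor by the quasi-likelihood method of edgeR 4.0.16 (R 4.3.3) after filterByExpr and TMM scaling, with Benjamini-Hochberg adjustment over all 18345 genes, and the standard error was taken as the absolute log2 fold change divided by the square root of F. A gene was called at an adjusted p under 0.05, and a DEG had in addition an absolute log2 fold change over 1. CPM are TMM-normalized, while limits for 3 counts use the raw totals. Near-identical copies were found with BLAST among GENCODE M21 transcripts, with a shortest length of 150 bases. The family sums were added after the counts on the copies had been seen. The test was checked on simulated counts. Alternatives used DESeq2 1.42.0, limma 3.58.1 (also on log2 FPKM), other scalings and filters, a replicate block, and each library left out. Same-numbered libraries did not deviate together (correlations of -0.30, -0.05 and -0.05), so the numbers were not taken as pairs.

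The genes named are all members called, the 3 largest and smallest fold changes, the 3 highest and lowest FPKM, a fixed set of paralogs and known members, the members below the filter, and the called genes of each pathway list. Others (Rpl35, Rps24, Rps21, Rps14, Rps7, Rpl23a, Rps3a1 and the copies) were picked with their values in view. The members and lists were chosen with earlier results of these data known. Each library was a separate mouse by the series design, and the reads carry no molecular identifiers, so counting limits cover counting error only. Some items are not reported here.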

Additional observations from a re-analysis of the deposited data

How the results depend on the processing

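Rpl26, Rpl21, Rplp0 and Rps3a2 were called in the same direction under all 19 alternatives to the edgeR fit on single rows. Rps3a3 was called under 18 of them and lost under the replicate block, the paired fit, at a log2 fold change of -2.13 (adjusted p = 0.0552), which gave 3 higher and 1 lower member and moved no other call among the named members. DESeq2 gave 6 members higher, and its share over all genes is not given here. With each library left out in turn, 3 to 5 members were higher, 2 to 3 were lower and 4 to 6 were DEGs, the highest values each without K2. With protein-coding members only, 0 were lower and 2 were DEGs.

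The sums with near-identical copies gave 0 members higher, 0 lower and 0 DEGs, at 95% and at 98% identity and with the replicate block. Under these sums Rpl26 turned to -0.48 at both limits of identity and to -0.51 with the block, and Rplp0 turned to -0.044 at 95% identity and -0.050 with the block but was 0.10 at 98%, none of them called. The sums add the counts of the copies and come from a separate fit of 18137 rows with its own scaling. Without K2, the sums gave Rps2 lower and Rpl35 higher.

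The median log2 fold change of the members stayed within 1 SD of the spread between libraries (0.18) under every alternative, from -0.14 without K2 to 0.07 without K3, and the difference in the summed share of counts ran from -0.144 without K2 to 0.141 percentage points without K3. The SD of the library medians was 0.0693 in Lgmn+/+-IR and 0.245 in Lgmn-/--IR. The 0.18 thus rests mostly on Lgmn-/--IR, K2 and K3 included, and is a weak measure for the fits without them.

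For the pathway lists together, 1 gene was higher and 4 were lower. DESeq2 gave 3 higher, again without a share over all genes. At least 10 counts in every library gave 0 higher and 2 lower. Without a filter on low counts, and with limma on log2(FPKM + 1) without a filter, there were 0 higher and 1 lower. The library totals alone, the upper quartile scaling and limma on log2(FPKM + 1) or log2(FPKM + 0.1) gave 0 higher. The replicate block gave 0 in each direction, on rows and on sums, and leaving out a library gave 0 to 1 higher and 0 to 3 lower. Over all rows of the fits on sums, the replicate block called 103 and leaving out a library called 197 to 432, against 570. The cause was not tested.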
